A study of Solanum lycopersicum with 6 samples.

Results

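miR164 is a conserved plant miRNA family that pairs with transcripts of NAC-domain transcription factors and lowers their activity. In Arabidopsis its targets include CUC1 and CUC2, which set the boundaries between organs, and in tomato they include GOBLET, which shapes the compound leaf. As in other miRNA families, a hairpin precursor gives a duplex of a 5p and a 3p arm, of which the mature strand is loaded into ARGONAUTE and the star strand is mostly lost. The study asked which miRNAs accumulate in pedicels of the tomato *hawaiian skirt* mutant *hws-1*, whose inner phloem is enlarged. *HWS* encodes an F-box protein that acts in miRNA production.

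The rows described here were chosen by their designation, miR164 with an optional letter, and both arms were kept. This gave 24 of the 826 rows of the 6 libraries, namely 4 rows in each library from the 2 loci miR164a and miR164b. A locus enters these lists through its reads, so that miR164 was listed at all is part of the choice and not a result. The family was also taken up with its difference between the lines known, and the p-values below are therefore not independent evidence for it.

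Small RNA was sequenced from 3 *hws-1* and 3 WT samples, both in the Micro-Tom background. *hws-1* is a weak allele from chemical (EMS) mutagenesis, grown as a backcrossed population. Each sample bulked 5 distal pedicel segments from fruits 10 days after anthesis, and the samples are biological replicates. The lists hold only miRNAs, so the tissue could not be checked against its markers. In bulked tissue, more cells of one type and more miRNA per cell cannot be told apart. The paper reports that rapid phloem growth began earlier and lasted for less time in *hws-1*, so growth phase and line cannot be told apart either.

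The study calls the deposited values TPM, and this name is kept here. The smallest step of the values, which stands for 1 read, gave a whole number of library reads in 6 of 6 libraries when the values were taken as scaled to 10000000 reads, and in 1 of 6 when taken as scaled to 1000000 reads. On the first scale the libraries held between 1142116 and 1801786 reads in *hws-1* and between 2577975 and 3135261 reads in WT, so depth and line cannot be told apart. A value of 1 read was worth between 5.55 and 8.76 TPM in *hws-1* and between 3.19 and 3.88 TPM in WT.

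The letters of the lists were first set against the tomato miRNA genes of RefSeq (assembly SLM_r2.1) by name and order alone, since no genome build is named for the lists. The row miR164a directly preceded miR8033 and then miR408 in every list, and the last family before it with a single RefSeq gene was miR6024 in 5 of 6 libraries. In the other library, *hws-1* replicate 1, the miR6024 sum was 0. In RefSeq, the gene between these neighbours, MIR6024 and MIR408, is MIR164b. The row miR164b stood later in the lists, among miR166 loci. The single-gene family after it was miR477 in 4 of 6 libraries, as after MIR164a in RefSeq, and another family in *hws-1* replicates 2 and 3, where the miR477 sum was 0. The one before it was miR9470 or miR10537 in every list, whereas in RefSeq miR159 precedes MIR164a. Families with 1 locus in a list and 1 gene in RefSeq, between 8 and 13 in a library, were then compared one by one. All of them lay on the matching side when the row miR164a was read as the gene MIR164b and the row miR164b as the gene MIR164a, in 6 of 6 libraries. With the letters read as they stand, between 2 and 5 of them did. The lists follow the RefSeq order only in part, with between 75% and 90.9% of the pairs of these families in that order. By this order the letters of the lists appear crossed with those of RefSeq, which no coordinates could settle. The letters below are those of the lists.

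The 5p arm was listed as mature and the 3p arm as star in 12 of 12 locus listings. The evidence word was Known in 11 of them. The exception was miR164a in *hws-1* replicate 2, which was listed as Probable and had a star strand at 0.

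The 5p strands were the abundant ones and stood higher in *hws-1*. miR164b-5p had 550.8, 1357 and 974.1 TPM in *hws-1* replicates 1, 2 and 3, against 285.7, 397.3 and 433.5 TPM in WT replicates 1, 2 and 3. The lines did not overlap, and *hws-1* replicate 2 stood well above the other two of its line. The means were 960.7 ± 403.4 TPM in *hws-1* and 372.2 ± 77.0 TPM in WT (SD, n = 3 each).

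miR164a-5p gave nearly the same picture. It had 528.6, 1326 and 930.3 TPM in *hws-1* replicates 1, 2 and 3, against 266.6, 370.1 and 419.2 TPM in WT replicates 1, 2 and 3. The order of the libraries was that of miR164b-5p, with no overlap between the lines. Among the rows joined by name and arm, these 2 of the 4 miR164 rows had all *hws-1* values above all WT values, against 14.3% of the 84 rows compared. The share was 12.1% of the 58 rows joined by full designation, in which miR164b-5p was 1 of the 2 miR164 rows.

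**Figure D1:**
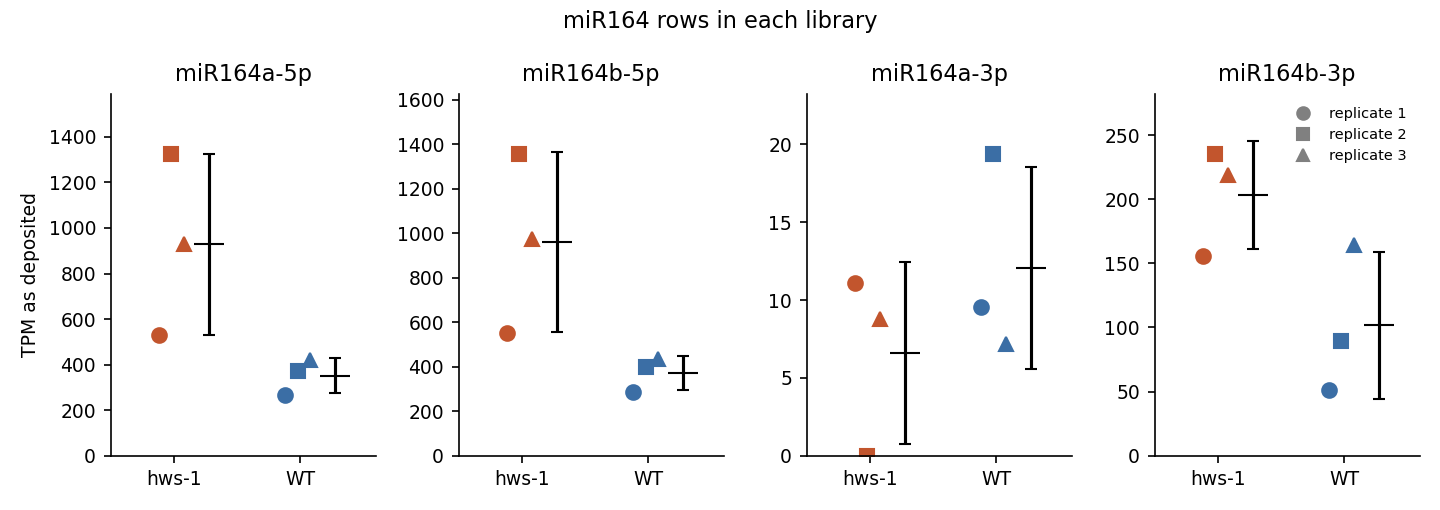
Value of each miR164 row (TPM as deposited, vertical axes from 0 with a scale of their own) in the 3 *hws-1* and 3 WT libraries, marked by replicate, with the mean and SD in black. In both 5p panels the *hws-1* libraries lie above all WT libraries, in the miR164b-3p panel the lowest *hws-1* library (155.4 TPM) lies below WT replicate 3 (164.3 TPM), and the miR164a-3p values stay at or below 19.4 TPM.

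The star strand miR164b-3p had 155.4, 235.3 and 218.9 TPM in *hws-1* replicates 1, 2 and 3, against 51.0, 89.2 and 164.3 TPM in WT replicates 1, 2 and 3. The lines overlapped, since WT replicate 3 stood above *hws-1* replicate 1 and below the other two *hws-1* libraries. These values rested on 28, 37 and 25 reads in *hws-1* and on 16, 23 and 46 reads in WT. The exact Poisson 95% intervals, which cover counting error only, were 103.3 to 224.6 TPM for *hws-1* replicate 1 and 120.3 to 219.2 TPM for WT replicate 3, so these 2 libraries could not be separated by counting. The WT libraries themselves differed by more than counting error, since the interval of WT replicate 1 was 29.2 to 82.9 TPM.

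The star strand miR164a-3p was close to the limit of these libraries. It had 2, 0 and 1 reads in *hws-1* replicates 1, 2 and 3 (11.1, 0 and 8.76 TPM), against 3, 5 and 2 reads in WT replicates 1, 2 and 3 (9.57, 19.4 and 7.15 TPM). In *hws-1* replicate 2 a count of 0 allows up to 19.1 TPM (3 reads). No difference between the lines was therefore detectable at this depth.

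The difference between the lines was tested with limma over all rows, on log2(TPM + 1). On this scale the change of low rows depends on the value added. Of the 58 rows joined by full designation, 4 had an adjusted p-value under 0.05, or 6.9%. Among these 4, 3 were rows named miR319, a family whose letters differ in part between the lists of the 2 lines. Of the 2 miR164 rows among the 58, 0 were called, while 2 of these 2 and 11 of the 58 had an unadjusted p under 0.05. The log2 fold change was 1.29 for miR164b-5p (standard error 0.40, limma adjusted p = 0.064) and 1.13 for miR164b-3p (standard error 0.43, limma adjusted p = 0.13). The change of miR164b-5p was above 0 in all 3 pairs of same-numbered samples, which any pairing gives where the lines do not overlap. A fit that took the replicate numbers as blocks called miR164b-5p (adjusted p = 0.029 from limma). In that block fit all rows shared a standard error of 0.44, and 8 of the 58 rows, or 13.8%, were called.

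Because miR164a was listed with another evidence word in *hws-1* replicate 2, its rows could be compared only when rows were joined by name and arm. Of these 84 rows, 3 were called, or 3.57%, and 0 of the 4 miR164 rows. The log2 fold change was 1.32 for miR164a-5p (standard error 0.41, limma adjusted p = 0.17) and -1.30 for miR164a-3p (standard error 0.94, limma adjusted p = 0.71). Without *hws-1* replicate 2, the value of miR164a-3p was -0.15. At an unadjusted p under 0.05 there were 3 of the 4 miR164 rows and 18 of the 84 rows in all. The 3 rows include both 5p rows, which are nearly the same measurement. With the replicate block, 8 of the 84 rows were called, and 0 of the 4 miR164 rows. The two-sided exact permutation tests of the single rows gave p = 0.10 for each 5p row, p = 0.20 for miR164b-3p and p = 0.50 for miR164a-3p, where 3 against 3 libraries cannot give less than 0.10.

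Calls also changed with single libraries. Without *hws-1* replicate 1, its lowest library, both 5p rows passed, with an adjusted p of 0.0094 for miR164b-5p and 0.025 for miR164a-5p from limma. The calls over the 58 rows also rose there, to 8, against 4 with all libraries. For the 84 rows, which hold miR164a-5p, they were not counted without single libraries. Without any other single library neither 5p row passed, with a limma adjusted p of up to 0.42 for miR164b-5p and 0.47 for miR164a-5p. Without WT replicate 3, miR164b-3p passed at 1.55 on the log2 scale (limma adjusted p = 0.034), and 6 of the 58 rows were called. Without any other single library miR164b-3p did not pass, with a limma adjusted p of up to 0.61. Rescaling to the same sum of listed rows moved the median log2 change of the 58 rows to -0.14, against 0.07 as deposited, and centring each library on its median moved it to -0.32. The log2 fold change of miR164b-5p was 1.09 with the same sum and 0.91 with median centring.

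The 2 loci cannot be told apart by their 5p arm. In terms of reads, miR164a-5p had 95.25, 208.4 and 106.25 reads in *hws-1* replicates 1, 2 and 3, and 83.6, 95.4 and 117.3 reads in WT replicates 1, 2 and 3. None of the 12 values of the 5p rows was a whole number of reads (within 1e-05 reads), whereas all 12 of the 3p rows were. Values in parts of a read arise where a read with several positions is divided among them. How the pipeline divides reads is not given in the sources used here, and by their values the 5p rows hold such reads while the 3p rows showed no sign of them.

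Within each library both 5p rows ended in the same fraction of a read. miR164b-5p exceeded miR164a-5p by exactly 4, 5 and 5 reads in *hws-1* replicates 1, 2 and 3, and by 6, 7 and 4 reads in WT replicates 1, 2 and 3. This excess was between 2.34% and 4.49% of the miR164b-5p row in *hws-1* and between 3.30% and 6.83% in WT. A read that fits both loci adds the same amount to both rows, so only these few net reads separate the rows. The shared fractions were multiples of 1/12 of a read (between 3 and 5 of them in *hws-1* and between 4 and 7 in WT), which sharing between 2 positions alone cannot give, so some of these reads were divided among more positions. The 5p rows of miR164a and miR164b are therefore nearly the same measurement, and their agreement counts as 1 observation and not as 2.

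**Figure D2:**
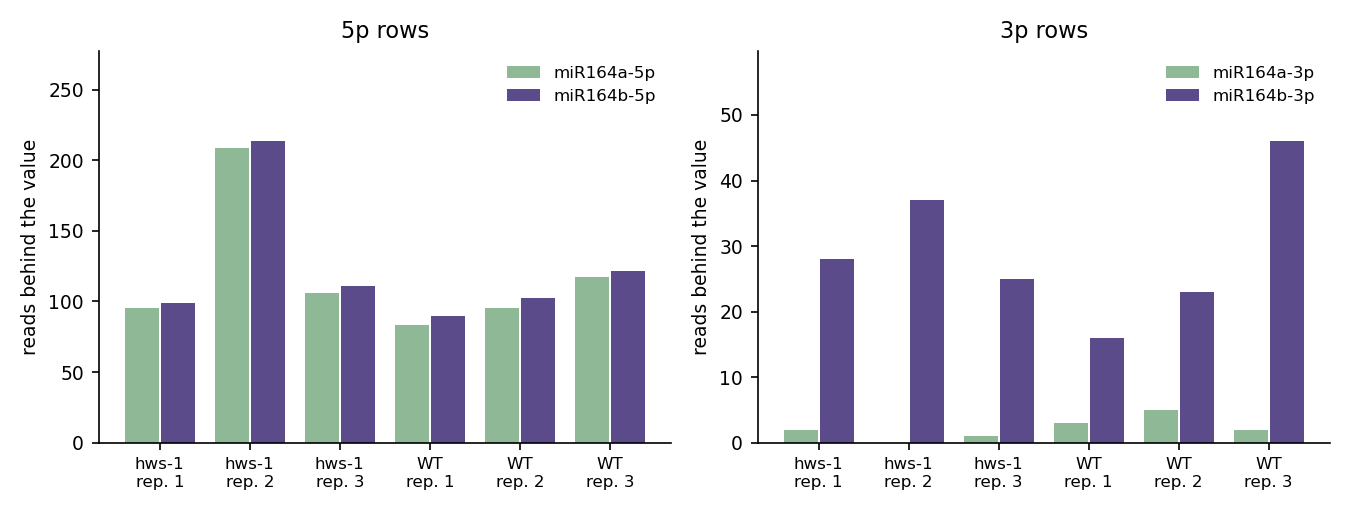
Reads behind each miR164 value (vertical axes from 0, the deposited value divided by that of 1 read) for both loci in each library, 5p rows on the left and 3p rows on the right. The 5p bars of the loci differ by 4 to 7 reads in every library, while miR164b-3p had between 16 and 46 reads and miR164a-3p between 0 and 5.

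On the 3p arm, where all values were whole reads, most reads were listed at miR164b. Whole values do not exclude that some 3p reads were shared. Of the 3p reads of both loci, miR164a held 2 of 30, 0 of 37 and 1 of 26 in *hws-1* replicates 1, 2 and 3, against 3 of 19, 5 of 28 and 2 of 48 in WT replicates 1, 2 and 3. Added over libraries, its share was 3.23% in *hws-1* (exact binomial 95% interval 0.670% to 9.14%) and 10.5% in WT (5.16% to 18.5%), intervals that cover counting error only and overlap. These shares hung on single libraries. In *hws-1* the share was 1.59% without replicate 1 and 5.36% without replicate 2, and in WT it was 17.0% without replicate 3, all settings chosen after seeing the data. miR164b-3p was 14 and 25 times miR164a-3p in *hws-1* replicates 1 and 3, and at least 12.3 times (against a floor of 3 reads) in replicate 2. In WT it was between 4.6 and 23 times.

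The excess of miR164b over miR164a on the 3p arm was thus present in all 6 libraries. Its size between the lines did not pass a test. With 1 TPM added to both rows, the mean log2 ratio of miR164a-3p to miR164b-3p differed by -2.43 between *hws-1* and WT (two-sided exact permutation p = 0.20, and 0.40 when adjusted over the 4 ratios tested, n = 3 each). This size is not well defined, since the count of 0 in *hws-1* replicate 2 makes it depend on the value added. It was -3.51 with 0.1 TPM added, -1.48 with 10 TPM added and -1.16 without that library. For the 5p arm the corresponding log2 ratio was -0.05 ± 0.02 in *hws-1* and -0.08 ± 0.03 in WT (SD, n = 3 each, exact permutation p = 0.30, adjusted 0.40).

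The ratio of the arms differed strongly between the loci, as far as shared 5p reads allow it to be read. With nearly equal 5p rows, this difference mostly repeats the excess of miR164b on the 3p arm and is not a separate result. For miR164b the 5p strand was 3.54, 5.77 and 4.45 times the 3p strand in *hws-1* replicates 1, 2 and 3, against 5.60, 4.45 and 2.64 times in WT replicates 1, 2 and 3. The lines overlapped, and the difference of the mean log2 ratios was 0.16 (two-sided exact permutation test, p = 0.60, adjusted 0.60, n = 3 each). Its sign turned when *hws-1* replicate 2 or WT replicate 3 was left out.

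For miR164a the 5p strand was 47.6 and 106.25 times the 3p strand in *hws-1* replicates 1 and 3. In *hws-1* replicate 2 it was at least 69.5 times, against a floor of 3 reads. The ratios in WT replicates 1, 2 and 3 were 27.9, 19.1 and 58.7. These ratios overlapped between the lines and rested on 0 to 5 star reads. The mean log2 ratio differed by 2.62 with 1 TPM added (two-sided exact permutation p = 0.20, adjusted 0.40, n = 3 each). For the same reason it was 3.69 with 0.1 TPM added, 1.74 with 10 TPM added and 1.17 without *hws-1* replicate 2. Since shared 5p reads enter both loci, the ratios of the loci are not measured independently, and the arm and locus ratios tested are not separate results. The ratio of all 5p to all 3p values does not depend on how miR164a and miR164b divide these reads between them. It can still depend on parts of 5p reads given to other positions. This summed ratio was 6.48, 11.4 and 8.37 in *hws-1* replicates 1, 2 and 3, against 9.11, 7.07 and 4.97 in WT replicates 1, 2 and 3. Here too the lines overlapped.

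**Figure D3:**
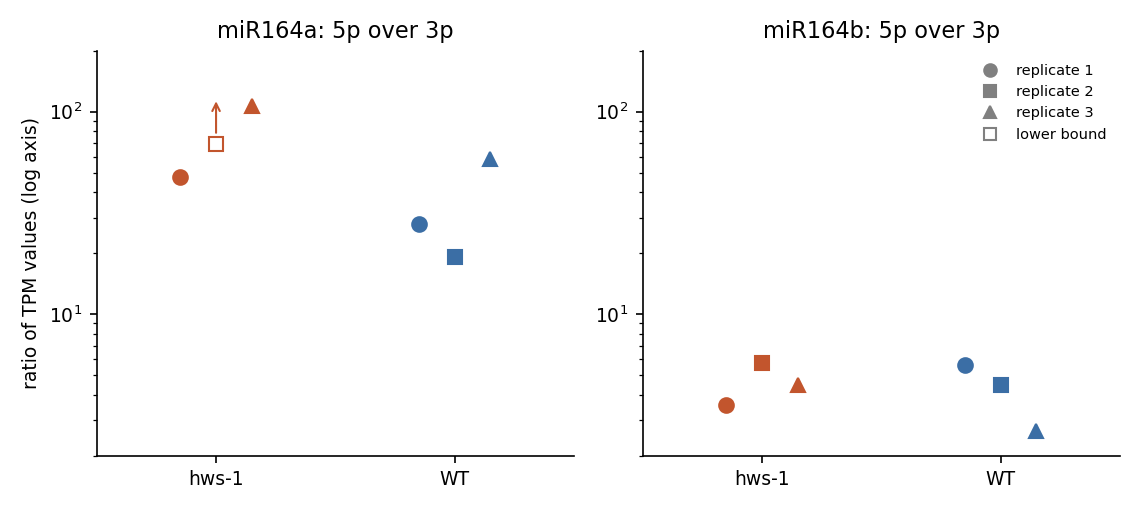
Ratio of the 5p to the 3p value of each locus (log axis) in the 3 *hws-1* and 3 WT libraries, marked by replicate. The open square with an arrow is a lower bound, at least 69.5 against a floor of 3 reads, for *hws-1* replicate 2, where miR164a-3p was at 0. All ratios of miR164a (19.1 and above) lie above all those of miR164b (5.77 and below), and the lines overlap at both loci. With nearly equal 5p rows, the gap between the loci mostly repeats the difference of their 3p rows.

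Summed over all 4 rows, miR164 had 1246, 2918 and 2132 TPM in *hws-1* replicates 1, 2 and 3, against 612.9, 876.0 and 1024 TPM in WT replicates 1, 2 and 3. Every *hws-1* library lay above every WT library. In samples with the same number, the sum in *hws-1* was 2.03, 3.33 and 2.08 times that in WT. The ratio of the means was 2.51, and 2.04 for the share of the listed values that miR164 took, which was between 0.861% and 1.32% in *hws-1* and between 0.342% and 0.644% in WT. No test is given for these sums, since the rows were chosen with their values known.

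These sums rested on few reads. The miR164 rows held between 224.5 and 458.8 reads in *hws-1* and between 192.2 and 286.7 reads in WT, and these ranges overlapped before scaling to depth. *hws-1* replicate 2, which had the most miR164 reads, also had the largest sum of listed values.

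Among the 29 families with a mean of at least 10 TPM in both lines, miR164 ranked 11 by level in *hws-1* and 16 in WT. Its ratio of 2.51 was second to that of miR398, at 6.95. Of the 29 family sums, 4, or 13.8%, were higher in every *hws-1* library than in every WT library, and miR164 was one of them.

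Other families whose known targets are transcription factors were taken from a fixed list of 16, of which 9 including miR164 were found. The other 8 had ratios of *hws-1* to WT between 0.333 (miR169, which targets NF-YA factors) and 1.43 (miR396, which targets growth-regulating factors), with a median of 1.02, against 1.03 over all 28 other families. None of the 8 was higher in every *hws-1* library, and 1, miR156, a regulator of SPL factors and phase change, was lower in every one. Over all 29 family sums the shares were 13.8% higher and 10.3% lower, so the counts of the 8 are near those of the whole. A family missing from a list was counted as 0 there, as miR156 was in *hws-1* replicate 3 and miR169 in *hws-1* replicates 2 and 3 and WT replicate 2. Of the 31 rows of these families joined by full designation, 2 were called higher and 1 lower in limma, against 2 higher (3.45%) and 2 lower (3.45%) of all 58 rows. The 3 rows are all named miR319, a family whose adjacent pair of loci is lettered b and c in the *hws-1* lists and a and b in the WT lists. The median log2 fold change of the 31 rows was 0.10, against 0.07 over all 58.

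**Figure D4:**
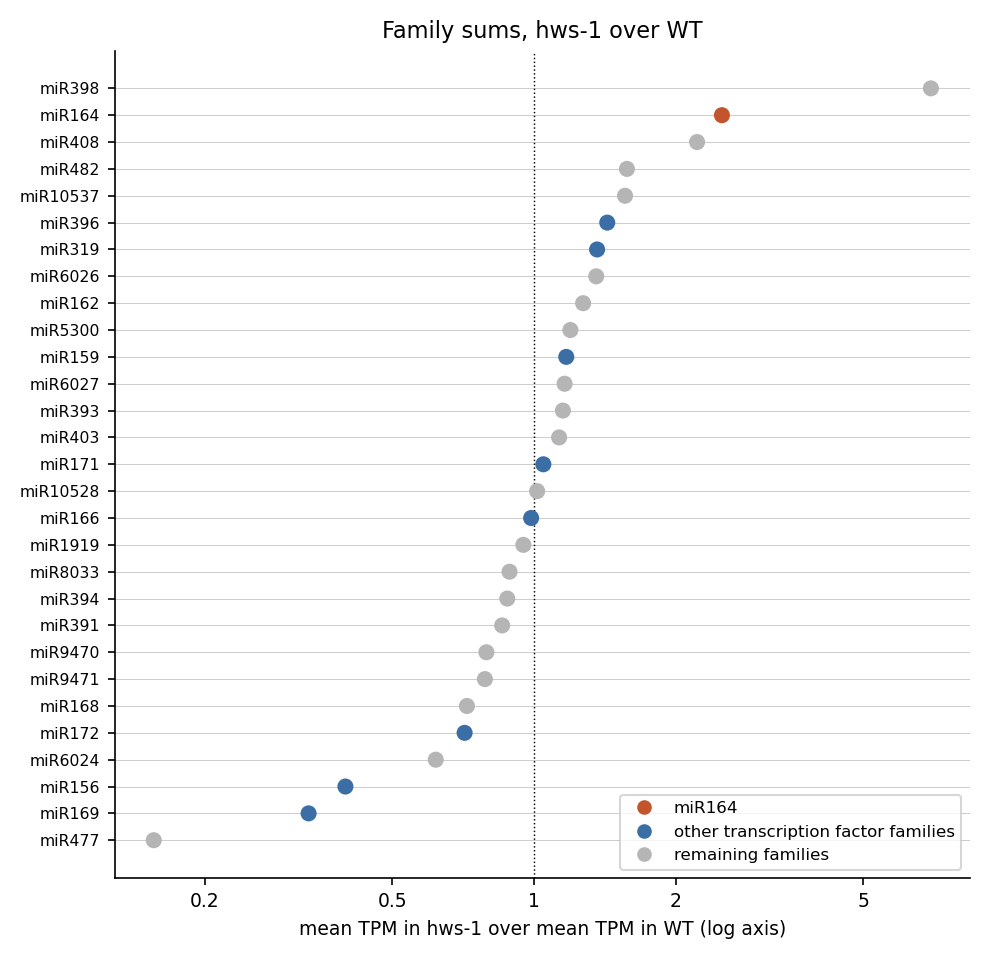
Ratio of mean TPM in *hws-1* to mean TPM in WT (log axis) for the sums of 29 miRNA families; miR164 is in orange, the other families of the fixed list in blue and the remaining families in grey. miR164 stands at 2.51, above the 8 other listed families, whose ratios lie between 0.333 and 1.43, and below miR398.

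The family sums whose levels followed miR164 most closely over the 6 libraries, on log2(TPM + 1), were miR396 (Pearson r = 0.95), miR482 (r = 0.94), which targets disease resistance genes, and miR398 (r = 0.90), which targets copper proteins. These correlations are descriptions over 6 points that share their library and its depth. The sum of miR164 had r = -0.87 with the number of library reads and 0.64 with the sum of listed values, and the part of depth in the likeness was not tested. *hws-1* replicate 2 was the highest library for all 3 of these families, as it was for miR164.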

How the data were processed

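Small RNA libraries from distal pedicel segments of 3 *hws-1* and 3 WT samples were analysed, grouped by the labels. Per the paper's methods, the authors ran the One Step pipeline of sRNAminer with default settings on each library. The file headers name trimming, removal of rRNA reads and bowtie alignment. The version and the genome build are not given in the sources used here. The deposited signal is a share of library reads, scaled by the authors. It had been planned as a value per 1000000 reads, but the step of 1 read fits a scale of 10000000. That step was the largest of which at least 30% of the values were whole multiples (32.3% to 38.0% were), so no count test was run across rows.

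Rows were joined by full designation or, for miR164a, by name and arm. Rows numbered within a library as miRN were left out. For rows that were listed in every library and above 0 in at least one, log2(TPM + 1) was fitted on line alone (limma 3.58.1, R 4.3.3), and p-values were adjusted over all such rows after Benjamini and Hochberg (threshold 0.05). The code was tested on simulated data. Ratios were compared by two-sided exact permutation tests over 20 assignments. Python 3.11.15, pandas 2.3.3, numpy 2.4.6, scipy 1.17.1 and matplotlib 3.10.9 were used.

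The replicate numbers come from the labels. With each row centred within its line, same-numbered samples had correlations of 0.16, 0.22 and 0.23, and other pairs between -0.33 and 0.14. Whether the numbers pair the samples was not tested. The main fit and the permutation tests over all assignments took the samples as unpaired, and the replicate block was run as an alternative.

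Every miR164 row was named, and other families by a fixed list, by counts of calls and by the 3 highest correlations. The members and lists were chosen with earlier results of these data known. Alternatives were pseudocounts of 0.1 and 10, a mean of at least 10 TPM, missing rows at 0, other scalings, a replicate block, an intensity trend, leaving out each library and, chosen after seeing the data, leaving out rows named miR319 and, for pooled 3p shares, each library. No sequences are printed, and no coordinates, since no build is named for the lists.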

Additional observations from a re-analysis of the deposited data

How the results depend on the processing

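Over its 16 alternatives miR164b-5p stayed higher in *hws-1*, with an adjusted p from limma between 0.0057 and 0.57, and 6 alternatives passed. These were a pseudocount of 10 (log2 fold change 1.27, adjusted p = 0.0057), and, at an unchanged log2 fold change of 1.29, a mean of at least 10 TPM (0.015), an intensity trend (0.0074), the replicate block (0.029) and omission of the rows named miR319 (0.036), besides the fit without *hws-1* replicate 1. Leaving out single libraries gave log2 fold changes between 0.997 and 1.65. miR164b-3p stayed higher in 16 of 16 alternatives and passed in 3, with a pseudocount of 10 (log2 fold change 1.05, adjusted p = 0.029), a mean of at least 10 TPM (1.13, 0.046) and without WT replicate 3, and single libraries moved it between 0.72 and 1.55. Its highest adjusted p from limma was 0.62. miR164a-5p stayed higher in 15 of 15 alternatives, of which 3 passed, and miR164a-3p lower in 14 of 14, of which 0 passed (a mean of at least 10 TPM removed it). The highest adjusted p from limma was 0.47 for miR164a-5p. For the 84 rows that hold miR164a, all calls were counted only in the main fit and with the replicate block. Across the 58 rows, 4 were called, against 8 with a pseudocount of 10, 8 with a mean of at least 10 TPM, 8 with the replicate block and between 3 and 8 when a library was left out, and the cause was not tested. The arm ratio of miR164b differed by 0.16 (log2), and by -0.14 to 0.40 without single libraries. The other ratios kept their direction in all 9 alternatives each, though those of miR164a-3p moved in size with the pseudocount and without *hws-1* replicate 2 (from 1.17 to 3.69 for the arm ratio and from -3.51 to -1.16 for the locus ratio), and the ratio of miR164 sums, 2.51, ranged from 2.02 to 3.01 without single libraries and was 1.82 after median centring. Between 0 and 5 reads limit miR164a-3p.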
